A study of Mus musculus with 12 samples.

Results

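Follicle cell RNA was examined in the oocyte libraries through 10 genes that cumulus and granulosa cells are known for: Amh, Inha, Fshr, Foxl2, Cyp19a1, Has2, Ptgs2, Ptx3, Tnfaip6 and Npr2. The genes were chosen by name, and all 10 were found among the 56691 genes of the table. The libraries were made from pools of mouse oocytes of 2 genotypes, WT and KO (Alkbh5 knockout), at the GV, GVBD and MII stages, with 2 libraries in each of the 6 groups. ALKBH5 is an enzyme that removes N6-methyladenosine from RNA. By the study's methods the KO was a total knockout made by CRISPR-Cas9 ablation of exon 1, so the follicle cells that surrounded KO oocytes lacked ALKBH5 as well as the oocytes themselves. The mice of both genotypes had a C57BL/6 background and the oocytes came from females a few weeks old that had been primed with PMSG, a hormone preparation that acts like FSH. Cumulus cells were taken off mechanically, the oocytes were held at the GV stage with milrinone, and the later stages were reached in culture. GV oocytes are arrested in prophase with an intact nucleus, GVBD oocytes have lost their nuclear envelope, and MII oocytes wait at the second metaphase. The later groups were collected by time in culture. By the study's account most KO oocytes in culture kept their nucleus, and few extruded a polar body. Whether all oocytes of the KO pools had reached the labelled stage is not settled here. A slower or arrested maturation in 1 genotype and an effect of genotype at the labelled stage therefore cannot be told apart. The labels give each library its own number but do not say that the 2 libraries of a group came from different animals. The study calls the 2 samples of a group biological replicates but does not name the animals behind them. Part of the spread between them may therefore be technical.

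The libraries held 28557742 to 40247810 counts and 19837 to 24436 genes with a count. Alkbh5 itself had 5355 to 10181 counts in the 6 WT libraries and 54 to 143 in the 6 KO libraries. The 12 oocyte markers checked, among them Zp3 and Gdf9, had counts in all 12 libraries. Haemoglobin counts, which mark blood, differed between libraries of one group. Among the WT libraries the 4 haemoglobin genes summed to 438 and 153309 counts at the GV stage, to 106038 and 97812 at GVBD, and to 254 and 1395 at MII. Among the KO libraries the sums were 84533 and 182754 (GV stage), 124 and 265 (GVBD stage), and 31844 and 33 (MII stage). Counts of non-oocyte RNA are therefore reported for each library, and the haemoglobin values stand beside the results they move with.

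Granulosa cells line the follicle and feed the oocyte, and the layer that stays attached to it becomes the cumulus. Under FSH, which acts through the receptor FSHR, granulosa cells make estradiol from androgens with aromatase, the product of Cyp19a1. They also secrete inhibin, whose alpha subunit is encoded by Inha, and anti-Müllerian hormone, encoded by Amh, and they depend on the transcription factor FOXL2. At the ovulatory signal, cumulus cells make a hyaluronan matrix with the products of Has2, Ptx3, Tnfaip6 and Ptgs2. NPR2, the receptor for C-type natriuretic peptide, makes cGMP in these cells, which passes into the oocyte through gap junctions and holds it in prophase.

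Fshr and Cyp19a1 were the members with counts in all 12 libraries, and their RefSeq promoters (assembly GRCm38.p6) are printed for that reason. RefSeq listed a promoter for 8 of the 10 members, leaving out Amh and Has2. The Fshr sequence is the 250 bases before its start at chr17:89200676-89200925 on the minus strand, and the capitals mark an E-box, CACGTG, the kind of site that USF factors bind. Its first base lies 61 bases before the start.
Fshr: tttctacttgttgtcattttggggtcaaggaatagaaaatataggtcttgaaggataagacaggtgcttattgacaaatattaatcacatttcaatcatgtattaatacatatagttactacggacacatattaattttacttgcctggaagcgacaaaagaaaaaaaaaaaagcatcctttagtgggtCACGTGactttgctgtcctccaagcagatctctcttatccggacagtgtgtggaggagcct
Cyp19a1 has 3 annotated starts, which gene-level counts do not separate. The sequence shown is the 100 bases before the middle one, chr9:54228915-54229014 on the minus strand, and the capitals mark a TATA box, TATAAA, on the strand of the gene with its first base 29 bases before the start.
Cyp19a1: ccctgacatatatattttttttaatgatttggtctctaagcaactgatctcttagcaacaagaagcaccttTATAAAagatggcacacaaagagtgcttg
The E-box was searched on both strands and is present in 6.02% of the 32851 promoters in the table over the same 250 bases, and the TATA box, searched on the strand of the gene alone, in 7.59%. The E-box was not found in the windows of the other 7 members listed, and neither the cAMP response element TGACGTCA (1.55% of all promoters) nor the NR5A site AAGGTCA (4.08%), both searched on both strands, was found in any of the 8. These matches describe letters in a window and not binding.

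**Figure D1:**
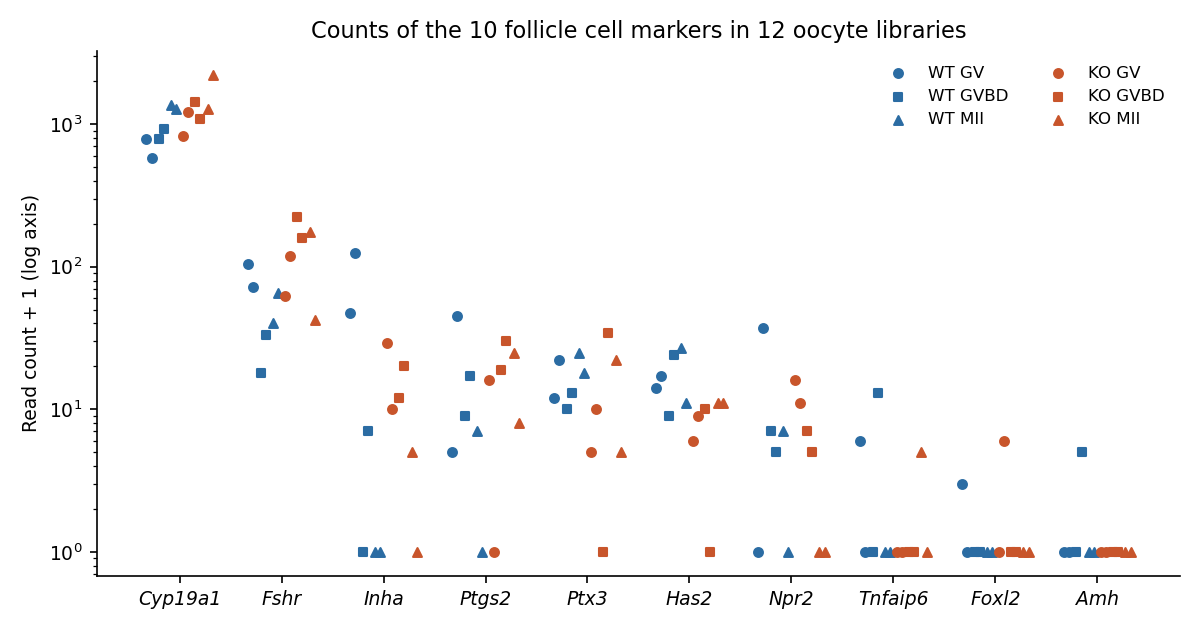
Read count plus 1 on a log axis for each of the 10 markers, with 1 point per library, colour for genotype and shape for stage. Cyp19a1 lies between 577 and 2225 counts in all 12 libraries and Fshr between 17 and 221, whereas every other marker has at least 1 library at 0 counts.

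Cyp19a1 stood apart from the other markers in abundance. Over all libraries they collected 15699 counts, of which Cyp19a1 took 87.7%, Fshr 6.99% and the other 8 genes together 5.34%, or 839 counts. Per length, Cyp19a1 was the most abundant, with a median of 6.88 CPM per kilobase of exon (CPM, counts scaled to a common library total; range 4.50 to 15.96 over 12 libraries). By its mean on this scale 4545 of 31485 genes with a count stood above it. Fshr followed with a median of 0.987 (0.213 to 3.15), and 10637 genes stood above it. The lowest Cyp19a1 level lay above the highest Fshr level. Below Fshr came Inha with a median of 0.146 (0 to 2.94), Ptx3 with 0.123 (0 to 0.341), Ptgs2 with 0.0766 (0 to 0.339), Has2 with 0.0690 (0 to 0.165) and Npr2 with 0.0298 (0 to 0.272). Amh, Foxl2 and Tnfaip6 had a median of 0. The ranges of Fshr and of every gene below it overlapped with that of the next gene in the order, and in the second WT GV library Inha (2.94) stood above Fshr (1.06), so the order among them was not resolved by the spread over libraries.

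The defining granulosa genes Amh and Foxl2 were at or near 0. Amh had 4 counts in the second WT GVBD library and 0 in the other 11. Foxl2 had 2 counts in the first WT GV library, 5 in the second KO GV library and 0 in the other 10. Its exons overlap those of Foxl2os on the opposite strand, which reached 5 counts, and the use of strand in counting is not stated. A count of 0 allows up to 3 counts in a library, which is 0.0761 to 0.106 CPM here. These limits cover counting error only. Counts of 4 were the most frequent of all entries between 1 and 10 (22.7%), so a few counts are not a fine measure in this table.

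Against the oocyte's own RNA the markers were scarce. The summed level per kilobase of the 10 markers was 0.0536% to 0.125% of the summed level of the 12 oocyte markers. Without Cyp19a1 the share was 0.00406% to 0.0574%, lowest in the second KO MII library and highest in the second WT GV library. In CPM the 10 genes summed to 24.6 to 74.2 per library, the 9 without Cyp19a1 to 1.42 to 10.97, and the 8 without Cyp19a1 and Fshr to 0.681 to 8.47. The highest value for the 8 genes came from the second WT GV library with 240 counts, beside 81 counts in the first. That library also had the highest counts of Inha, Ptgs2 and Npr2, and 153309 haemoglobin counts. The library with the most haemoglobin counts, the second KO GV library (182754), had 41 counts of the 8 genes, fewer than the 67 of the first KO GV library (84533). The part of blood or other cells in this value was not tested. In a bulk library, fewer follicle cells and less RNA in each of them cannot be told apart. Such a library also does not set RNA of the oocyte itself apart from theirs. Cyp19a1 had its highest count, 2225, in the second KO MII library. There the 8 genes summed to 21 counts and the haemoglobin genes to 33, each the lowest sum of the 12 libraries. The cells that the Cyp19a1 counts came from were not tested.

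**Figure D2:**
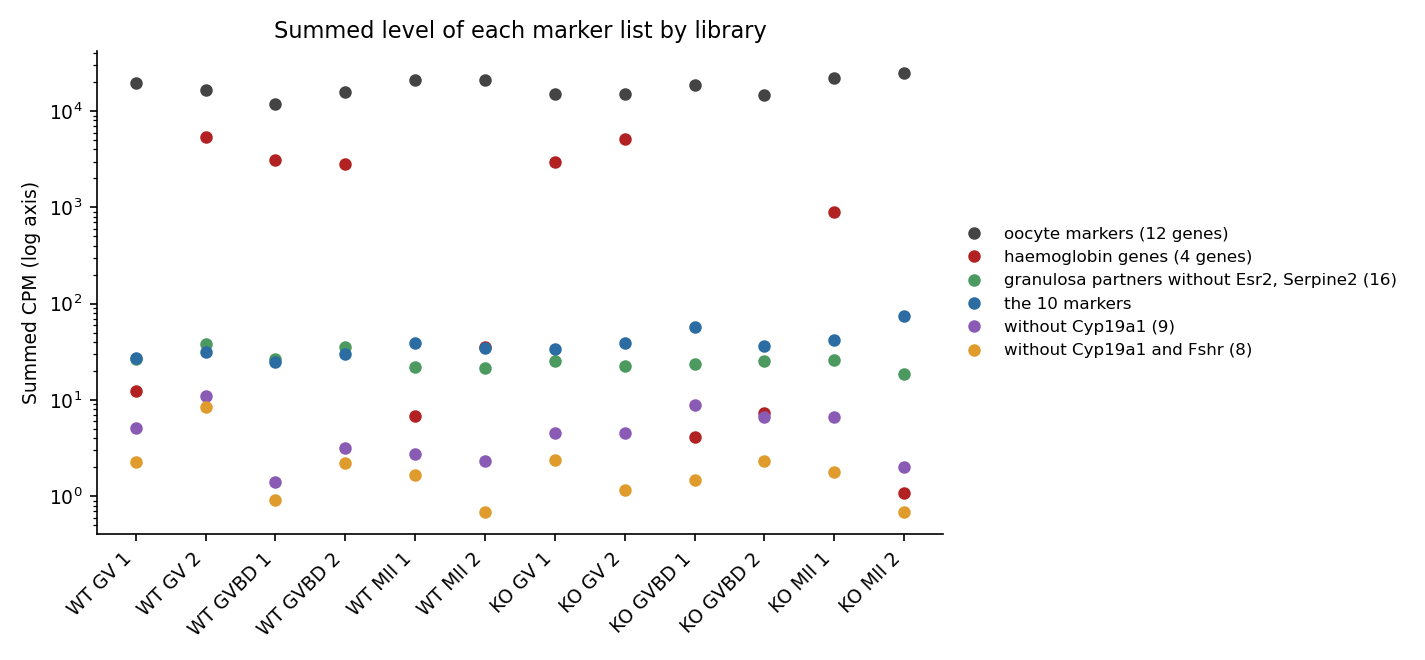
Summed CPM (log axis) of each list in each of the 12 libraries, 1 point per library and list. The oocyte markers sit far above all others, the haemoglobin genes span 1.07 to 5409 CPM, and the 8 markers without Cyp19a1 and Fshr stay between 0.681 and 8.47.

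Cyp19a1, the aromatase gene (ENSMUSG00000032274, chromosome 9, 54165937 to 54268110, minus strand, GRCm38), was present throughout. On the spike-in scale its KO values lay above the WT values at each stage, by a difference that did not pass the test. Counts were scaled by the ERCC spike-in RNA added to each tube, so that the values stand for amounts per pool. The WT pools gave spike-in scaled counts of 935 and 814 (GV), 1054 and 824 (GVBD), and 1089 and 611 (MII). The KO pools gave 1506 and 1563 (GV), 2335 and 1195 (GVBD), and 1268 and 1594 (MII). At each stage both KO libraries lay above both WT libraries. In CPM this held at GV and at GVBD, whereas at MII the KO values of 35.7 and 72.2 overlapped with the WT values of 36.8 and 32.1. Among the 18794 genes averaging 10 counts or more, 6.13% were above WT in KO at every stage without overlap on the spike-in scale. The share in CPM was 6.09%, and Cyp19a1 was not among those genes. Taken singly on the spike-in scale, this separation was found for 42.9% (GV), 30.8% (GVBD) and 21.2% (MII) of the 18794 genes. The CPM shares for single stages were not counted.

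With edgeR's quasi-likelihood test and Benjamini-Hochberg adjustment over all genes, Cyp19a1 had a KO against WT log2 fold change of 0.81 ± 0.21 at the GV stage (SE, adjusted p = 0.177), of 0.91 ± 0.54 at GVBD (adjusted p = 0.454), and of 0.75 ± 0.84 at MII (adjusted p = 0.9999). Fitted over all 3 stages with the stage as a covariate it was 0.82 ± 0.24 (adjusted p = 0.101). The median log2 fold change of all genes in that fit was 0.29. With DESeq2 the adjusted p of Cyp19a1 was 0.0114 at GV and 0.0154 over all stages, and with the replicate number as a block it was 0.251 and 0.0371. Its fold change stayed under the minimum of 1 on the log2 scale in each of these. From GV to MII the fitted change was -0.04 ± 0.50 in WT and -0.10 ± 0.60 in KO, where the median gene fell by 1.06 and 1.17 on the log2 scale. Under TMM scaling, which sets most genes to no change, the values turned to 0.85 in WT and 1.19 in KO. In CPM the WT libraries went from 22.1 and 20.4 at GV to 36.8 and 32.1 at MII, without overlap. The share of genes that did so was not counted.

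Fshr, the FSH receptor gene (ENSMUSG00000032937, chromosome 17, 88984952 to 89200675, minus strand, GRCm38), was higher in KO than in WT at GVBD. The WT GVBD libraries had 17 and 32 counts and the KO GVBD libraries 221 and 157. Scaled by spike-in, these are 22.8 and 28.3 in WT and 363 and 173 in KO, so the groups did not overlap, as was the case, with KO above WT at GVBD, for 30.8% of the 18794 genes above. The log2 fold change was 3.38 ± 0.69 (adjusted p = 0.00897, n = 2 per group). Of the 6 markers tested at GVBD, Fshr was the 1 that passed the thresholds, an adjusted p under 0.05 and a log2 fold change of at least 1 in either direction, which 2.54% of all 19462 genes tested passed. The 6 markers were those that passed the filter on low counts.

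The Fshr call at GVBD depended on the scaling and on single libraries. The log2 fold change was 2.99 under TMM scaling and 3.00 under median-of-ratios scaling, and neither passed the threshold. The call was also lost without the first KO GVBD library, without either WT GVBD library (2.75 to 3.54 over these 3) and when all 12 libraries were fitted in 1 model, with 3.38 there. The haemoglobin genes moved the other way in the same libraries, with 106038 and 97812 counts in the WT GVBD libraries and 124 and 265 in KO, and their part in the result was not tested.

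At the other stages the Fshr values overlapped between the genotypes. The WT GV libraries had 103 and 71 counts and the KO GV libraries 61 and 118, and the log2 fold change was 0.24 ± 0.46 (adjusted p = 0.840). Under TMM scaling this value was -0.09. At MII the WT libraries had 39 and 64 counts and the KO libraries 173 and 41, with a log2 fold change of 1.70 ± 1.07 (adjusted p = 0.910) that the first KO MII library carried, since without it the value was -0.08. Over all stages Fshr was at 1.75 ± 0.58 (adjusted p = 0.135). Whether the genotype effect on Fshr differed between GVBD and GV was tested as an interaction in a model of all 12 libraries, which gave 3.14 ± 1.11 on the log2 scale with an adjusted p of 0.877. This test called 0 of 22004 genes, and Fshr had an unadjusted p of 0.0133 in it (edgeR). The stage dependence of the effect was therefore not shown, nor was its absence.

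Within WT, Fshr was highest at GV. Its spike-in scaled counts were 122 and 100 (GV), 22.8 and 28.3 (GVBD), and 31.1 and 30.8 (MII), and both GV libraries lay above all 4 later ones. The MII against GV change was -1.84 ± 0.81 with an adjusted p of 0.0691. In this comparison the median of all genes was -1.06 and 30.9% of genes were called. The share of genes with both GV libraries on top was not counted. The KO values were 111 and 151 (GV), 363 and 173 (GVBD), and 173 and 29.4 (MII), and the change from GV to MII was -0.37 ± 0.98 (adjusted p = 0.845). The groups of KO overlapped between GV and MII.

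**Figure D3:**
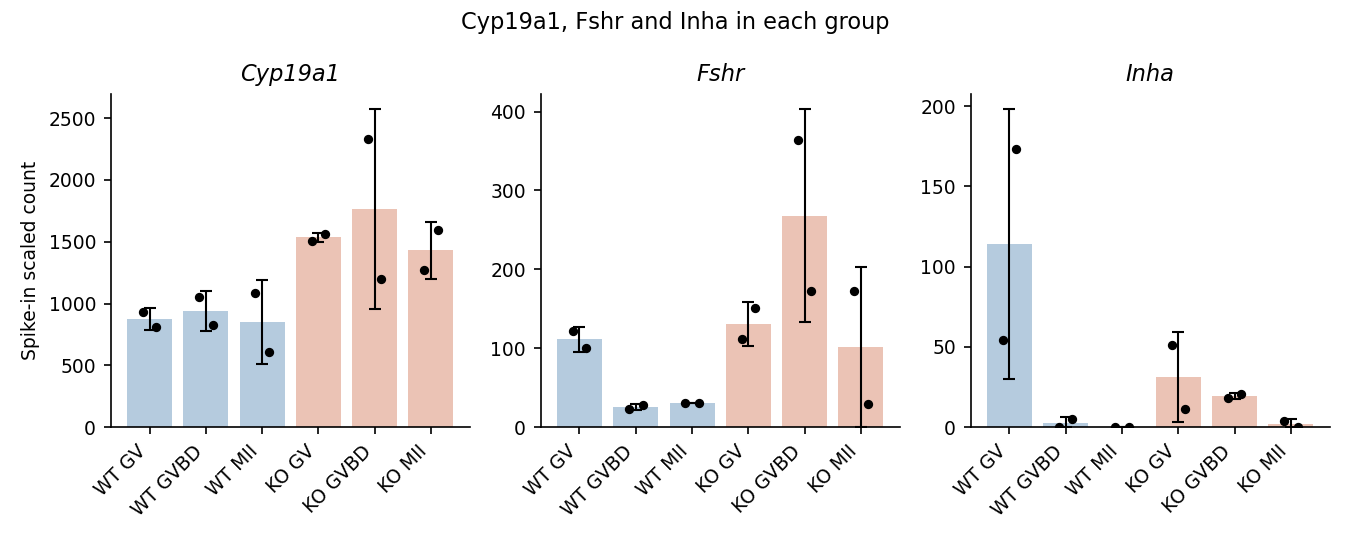
Spike-in scaled counts (linear axes, each from 0) of Cyp19a1, Fshr and Inha in the 6 groups, with bars for the mean of 2 libraries, error bars for the SD (lower ends cut at 0) and points for single libraries. Cyp19a1 is higher in KO at each stage, Fshr stands out in KO GVBD, and Inha is highest at GV in WT, whereas its KO values at GV and GVBD overlap.

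Inha, the inhibin alpha subunit gene (ENSMUSG00000032968, chromosome 1, 75507077 to 75510366, plus strand, GRCm38), fell from GV to MII in WT. The WT GV libraries had 46 and 123 counts, the WT GVBD libraries 0 and 6 and both WT MII libraries 0. The change from GV to MII passed the test (adjusted p = 2.15e-10). Since MII was at 0, the fold is a lower bound, and Inha was at least 59.4-fold lower at MII, taking 3 counts in each MII library as the limit. Left out 1 at a time, the libraries moved this bound from 28.4-fold (without the second GV library) to 90.4-fold (without the first), with 78.9-fold and 47.6-fold without the first and the second MII library. Inha was 1 of 5 markers tested in this comparison and the only one called, where 30.9% of 18816 genes passed the thresholds, nearly all of them lower at MII. The others tested were Fshr and Cyp19a1, given above, with Has2 at -0.58 and Ptx3 at -0.64. Inha was also called with any 1 of the 4 libraries left out, and under both other scalings.

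The KO pools held 28 and 9 Inha counts (GV), 11 and 19 (GVBD), and 4 and 0 (MII). Against WT it was at -1.88 ± 0.95 (adjusted p = 0.362) at GV and 2.72 ± 1.64 (adjusted p = 0.469) at GVBD on the log2 scale, and it was not tested at MII, where its counts did not pass the filter. Over all stages it was at 1.10 ± 1.19 (adjusted p = 0.658). Both KO libraries lay below both WT libraries at GV, as for 9.5% of the 18794 genes averaging 10 counts or more, and above both at GVBD, as for 30.8%. The pair of separations was found in 1.23% of these genes. The difference between these genotype effects was 4.60 ± 2.11 (adjusted p = 0.9999). Between the WT GV libraries Inha and haemoglobin counts were higher together (46 Inha beside 438 haemoglobin counts, and 123 beside 153309), and between the KO GV libraries they went opposite ways (28 beside 84533, and 9 beside 182754). At GVBD the WT libraries, with 106038 and 97812 haemoglobin counts, had 0 and 6 Inha counts, and the KO libraries, with 124 and 265, had 11 and 19. At MII, Inha was at 4 counts in the KO library with 31844 haemoglobin counts and at 0 in the other 3 libraries.

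Where the matrix genes and Npr2 had enough counts to be tested, they did not pass. Has2 was tested in 5 of the 6 comparisons, Ptgs2 and Ptx3 in 4 each and Npr2 in 2 (at GV and over all stages), and Tnfaip6 in none. Has2, the hyaluronan synthase, had a lowest, median and highest count of 0, 10 and 26 over the 12 libraries, and was at 0 in the second KO GVBD library alone. Ptgs2, which encodes the prostaglandin synthase COX-2, had 0, 11.5 and 44 counts, and Ptx3, the matrix pentraxin, had 0, 11.5 and 33. Tnfaip6, which links hyaluronan chains in the matrix, had counts in 3 libraries (5, 12 and 4). Npr2 had 0 and 36 counts in the WT GV libraries, 15 and 10 in the KO GV libraries, 4 or 6 in the 4 GVBD libraries and 6 or 0 at MII. Its exons overlap those of an opposite-strand gene, Gm12473, which reached 6 counts, and those of Has2 overlap Has2os, which had none. Over all stages the fitted KO against WT changes were -0.87 ± 0.88 for Has2, 0.88 ± 1.20 for Ptgs2, -0.22 ± 0.93 for Ptx3 and -0.85 ± 1.26 for Npr2. At GV, Has2 and Ptx3 were lower in KO without overlap, as were 9.5% of the 18794 genes averaging 10 counts or more on the spike-in scale. Ptgs2 was higher in KO without overlap at GVBD and at MII, as were 30.8% and 21.2% of these genes. Npr2 and Tnfaip6 overlapped at each stage.

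In the other 4 comparisons edgeR called 0 markers. At GV 6 markers were tested and 0.0977% of all 19452 genes were called. Cyp19a1 was the 1 marker with an unadjusted p under 0.05 there. At MII 4 markers were tested, none with an unadjusted p under 0.05, and 0.803% of 17566 genes were called. Over all stages 7 were tested, of which Cyp19a1 and Fshr had an unadjusted p under 0.05, and 1.26% of 22004 genes were called. From GV to MII in KO 3 were tested, none with an unadjusted p under 0.05, and 3.28% of 18777 genes were called. DESeq2 called 0 markers in 3 of these comparisons and 1 over all stages, Fshr.

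**Figure D4:**
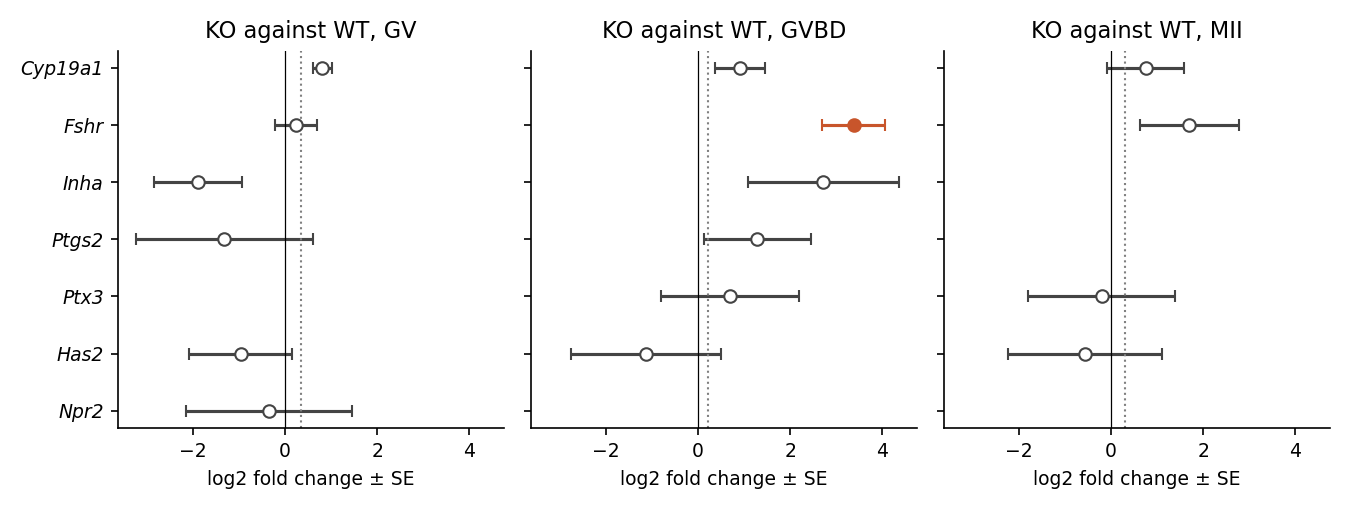
log2 fold change of KO against WT with its SE for the markers tested at each stage, on a common axis. The dotted line is the median of all genes, the filled point is the one call, Fshr at GVBD with 3.38, and genes without a point were below the filter on counts.

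Other granulosa genes behaved unevenly. Of 18 chosen, 3 had no count in any library: Amhr2, the receptor for anti-Müllerian hormone, Nppc, which encodes the ligand of NPR2, and Sult1e1, an estrogen sulfotransferase. Nr5a1, Wt1 and Hsd17b1 had a median of 0 counts. At the other end, Serpine2, a protease inhibitor, had 3713 to 13337 counts, Esr2, the estrogen receptor beta gene, 578 to 11525, and Nr5a2, a nuclear receptor of granulosa cells, 292 to 480, all in 12 of 12 libraries. Kitl, the ligand of the oocyte's KIT receptor, had 73 to 263 and Gja1, the connexin of granulosa gap junctions, 15 to 248. In none of the 4 comparisons of KO with WT was a gene of this list called (14, 10, 10 and 14 tested). From GV to MII in WT, 5 of 11 tested were lower and none higher: Esr2 by a log2 fold change of -5.15 ± 0.56, Gja1 by -3.08 ± 0.69, Lhcgr, the LH receptor gene, by -3.74, Star, a cholesterol carrier of steroid synthesis, by -3.52 and Inhba, an inhibin beta subunit, by -2.62. Of all genes tested 30.9% were called here, nearly all lower. The median of the 11 was -2.62, beside -1.06 for all genes. In KO, where 3.28% of all genes were called, none of 11 was, with a median of -0.76 beside -1.17.

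Of 10 further genes of cumulus expansion, Areg and Btc, ligands of the EGF receptor, had no count in any library, and Pgr had 4 counts in 1 library. Egfr itself had 1320 to 3783 counts and Ptger4, a prostaglandin E2 receptor gene, 45 to 178. Ereg, another ligand, was at 105 counts in the second WT GV library, at 52 in the second WT GVBD library and at 12 or fewer in the other 10. Cd44, the hyaluronan receptor, was lower in KO at GVBD, with 149 and 264 counts in WT and 8 and 28 in KO and a log2 fold change of -3.27 ± 0.70 (adjusted p = 0.0135). The haemoglobin genes were lower there too, with 106038 and 97812 counts in WT and 124 and 265 in KO. At GV, Cd44 and haemoglobin counts were higher together in WT (47 beside 438, 238 beside 153309). In KO they went opposite ways at GV (99 beside 84533, 62 beside 182754). The part of blood or other cells in the Cd44 result was not tested. Cd44 was also lower at MII than at GV in WT, by -3.46 ± 0.77. It was the only gene of this list that was called in either comparison, from 6 tested in each. Of all genes, 2.54% were called in the first comparison and 30.9% in the second.

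Markers of other cells moved with the same comparisons. At GVBD, where 2.54% of all genes were called, 4 of 7 theca and stroma markers tested were lower in KO. These were the collagen genes Col1a1, Col1a2 and Col3a1 and the receptor gene Pdgfra, by -2.68 to -4.78 on the log2 scale. Dcn, another abundant gene of that list, was not called. Of 10 blood and vessel markers 6 were called lower and none higher. They were the haemoglobin genes Hba-a1, Hba-a2, Hbb-bs and Hbb-bt and the leukocyte genes Ptprc (-3.62) and Lyz2 (-2.21). The rest of that list was not called, with Cd68 at 1.09, Kdr at 0.91, Pecam1 at 0.52 and Cdh5 at -0.80. The keratins Krt5 and Krt14 were lower as well, and also over all stages, where 1.26% of all genes were called. Krt5 had 660 and 434 counts in the WT GVBD libraries and 0 in the other 10. At MII, where 0.803% of all genes were called, the 4 haemoglobin genes were called higher in KO, carried by the first KO library. They had 31844 counts in that library and 33 in the second. The second lay below both WT libraries, with 254 and 1395.

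From GV to MII in WT, where Inha was called and 30.9% of all genes were, 3 of 7 theca and stroma markers were lower (Col1a1, Col3a1 and Pdgfra), as were 6 of 10 blood and vessel markers (the 4 haemoglobin genes, Ptprc and Lyz2). Of 12 oocyte markers 5 were lower, the zona genes Zp1, Zp2 and Zp3, the transcription factor gene Figla and Ooep of the subcortical maternal complex, and Oosp1 was higher. In KO, Acta2, Lyz2, Cdh5 and Krt8 were lower at MII, where 3.28% of all genes were called. The part of these cells in the results for Fshr and Inha was not tested. Fshr was higher at GVBD in the genotype in which the other-cell markers called at that stage were lower. Within KO, Fshr and haemoglobin counts were higher together at GV (61 beside 84533, 118 beside 182754). The same held in KO at MII (41 beside 33, 173 beside 31844) and in WT at MII (39 beside 254, 64 beside 1395). They went opposite ways within WT at GV (103 beside 438, 71 beside 153309). The same held at GVBD in WT (17 beside 106038, 32 beside 97812) and KO (221 beside 124, 157 beside 265).

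The genes whose levels followed the 2 abundant markers most closely were found from the log2 spike-in scaled counts (pseudocount 1) across the 12 libraries, among 10837 genes that averaged 50 counts or more. For Fshr they were Il34 (Pearson r = 0.954), Rps4l (0.935) and Rhbdd2 (0.928), where the median gene had r = 0.496. For Cyp19a1 they were Zfp120 (0.941), Prex2 (0.940) and Pparg (0.939), with a median of 0.323. All libraries enter both genes of a pair and share the spike-in scale and the groups, so these values are descriptions.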

How the data were processed

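Raw counts per gene and the counts of 92 ERCC spike-in sequences were used as deposited. By the submitters' processing notes, the authors worked with cutadapt 1.9, HISAT2 2.0.4 and StringTie 1.3.4d on mm10, and the methods add that uniquely mapped reads were kept. The gene annotation, the use of strand and the counting step are not given in the sources used here. The labels describe a bulk library with strand marking and the methods a SMART-seq protocol on oocyte pools, so the library type is unsettled. Without molecular identifiers, PCR copies are counted as reads. 

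Symbols came from an Ensembl table (52073 of 56691 genes) and positions and exon lengths from GENCODE M21 (GRCm38). Tests used edgeR 4.0.16 (glmQLFit, glmQLFTest, R 4.3.3) on the libraries of each comparison, with library sizes in proportion to ERCC counts, filterByExpr, and Benjamini-Hochberg adjustment over all genes tested. SEs are |log2 fold change| over the square root of F. Alternatives were other scalings and filters, DESeq2 1.42.0, a replicate block, all 12 libraries together, and leaving out each library. The method was tested on simulated data. The members and lists were chosen with earlier results of these data known. All members, the 3 most abundant genes of each other list and any listed gene called were to be named. Some others are named for their counts or to complete a list, chosen after the results were seen.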

Additional observations from a re-analysis of the deposited data

Results flagged for a closer look

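Inha was flagged because the genotypes differed in opposite directions at 2 stages with no overlap between libraries. At GVBD both KO libraries lay above both WT libraries, and the mean spike-in scaled count was higher in KO by 16.9. At GV both KO libraries lay below both WT libraries, with a difference of -82.8. Of the 18794 genes averaging 10 counts or more, 1.23% showed this pair of separations. Neither difference passed the test on its own, and the test of the difference between them gave an adjusted p of 0.9999 (edgeR, 0.0482 before adjustment). That test called 0 of 22004 genes. The counts behind the GVBD difference are 0 and 6 in WT and 11 and 19 in KO.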

How the results depend on the processing

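Counts of called markers changed with the scaling, the filter, the tool, the libraries in the model and single libraries, and the cause was not tested. At GVBD 1 marker was called, Fshr, and 0 under TMM scaling, median-of-ratios scaling and all 12 libraries in one model, and 0 to 1 with 1 library left out. Over all stages 0 were called, against 1 (Fshr) without a filter, with at least 10 counts in every library and with DESeq2, and 0 to 1 with 1 library left out. From GV to MII, leaving out 1 library gave 1 to 2 in WT, with Ptgs2 added without the first GV library, and 0 to 2 in KO, with Inha and Fshr called without the first MII library. Requiring 10 counts in every library replaced Inha, which then was not tested, by Fshr (-1.84) in WT. The count was the same under the other settings tried. Signs turned only for values that had not passed the test. The Fshr difference at GV was -0.0858 under TMM and -0.0828 under median-of-ratios scaling and -0.0018 to 0.44 with 1 library left out, and at MII it was -0.0766 to 2.48. Cyp19a1 from GV to MII was 0.85 and 0.89 under these scalings in WT (-0.52 to 0.32 with 1 library left out), and 1.19 and 1.23 in KO (-0.275 to 0.0548), where Fshr was 0.41 and 0.42 (-2.15 to 0.40). TMM moved the median of all genes from 0.36 to 0.00 at GV, from 0.30 to 0.00 at MII and from -1.06 to -0.14 between GV and MII in WT. Over all alternatives the number of genes called ranged from 0 to 666 at GV (19 as reported), 5 to 953 at GVBD (494), 0 to 542 at MII (141), 63 to 1356 over all stages (278), 2853 to 5821 from GV to MII in WT (5821) and 39 to 11075 in KO (616). The summed level of the markers in a group was 27.4 to 58.3 CPM and 2.30 to 8.06 without Cyp19a1.

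Libraries with the same number did not deviate together: their differences correlated at -0.22 at GV, 0.14 at GVBD and -0.19 at MII over 13273 genes, so the numbers were not read as pairs. The replicate block changed no count of called markers (Fshr at GVBD was 3.28, adjusted p = 0.0362, edgeR). Crossed numbers, added after the data were seen, called 0 markers at GV and 0 at MII, and 218 and 0 genes. The depth limits the markers at or near 0 counts, for which 3 counts cannot be told from none.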
